A study of Mus musculus with 12 samples.

Results

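The 8 genes Fgl2, Itga1, Itgax, Cd93, Pik3ap1, Slamf7, Chsy1 and Ssh2 were followed across sorted mouse T cells because their levels stood out in CD4+ T cells of mice without the γδ T cell receptor. They were picked from 52459 genes for a difference between knockout and wild-type CD4+ libraries on the control diet, or for a diet effect that differed by genotype. All 8 were among the 16218 genes that passed a filter on low counts. The values of those contrasts are therefore given as a description, with no test. Tests are given for the diets in γδ T cells, for the diet effect averaged over both genotypes and for γδ against CD4+ T cells.

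RNA was sequenced from T cells that were sorted straight into lysis buffer, in 12 libraries that form 6 groups of 2. The mice were 7 weeks old when the diets began and ate for 6 weeks either a control diet or the MCD diet, which lacks methionine and choline and makes the mouse liver fatty and inflamed. CD4+ T cells came from γδTCR-/- mice (knockout) and from wild-type C57BL/6 mice on either diet, and γδ T cells came from wild-type C57BL/6 mice on either diet. The labels name no tissue, give no strain for the knockout, do not say which receptor gene it lacks and do not say that the replicates of a group are separate mice, so p-values measure only the spread between these samples.

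Most of the 8 genes encode proteins of the cell surface and of signalling beneath it. T cells that settle in a tissue hold on to it through integrins and other adhesion receptors, and they move by turning over actin. Itga1 encodes the α1 chain of a collagen-binding integrin (CD49a) that marks tissue-resident lymphocytes, and Itgax encodes the αX chain (CD11c), best known from dendritic cells and found on some activated T cells. Cd93 encodes a C-type lectin-like receptor of endothelial and myeloid cells, and Slamf7 encodes a receptor of the SLAM family, which binds its own kind on neighbouring cells. Fgl2 encodes fibrinogen-like protein 2, whose secreted form dampens immune responses through inhibitory Fcγ receptors. Pik3ap1 encodes the adaptor BCAP, which recruits phosphoinositide 3-kinase (PI3K), Chsy1 encodes a chondroitin sulphate synthase, and Ssh2 encodes a slingshot phosphatase that activates the actin-severing protein cofilin.

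The genes lie apart in the GRCm38 genome (GENCODE vM21): Slamf7 at chr1:171632403-171653035, Cd93 at chr2:148436640-148443563, Fgl2 at chr5:21372642-21378374, Chsy1 at chr7:66109515-66173798 and Itgax at chr7:128129547-128150657. Ssh2 lies at chr11:77216287-77460220, Itga1 at chr13:114953096-115101964 and Pik3ap1 at chr19:41272377-41385102. Slamf7, Cd93, Itga1 and Pik3ap1 are on the minus strand. Fgl2 lies within the span of Ccdc146 on the opposite strand, which had 0 to 359 counts, and an antisense transcript within Slamf7, Gm37787, had 0 to 469 counts. Whether counting used the strand is not given in the sources used here, so reads of such overlapping genes cannot be told apart. Pelo lies within Itga1 on the same strand, where the strand does not tell reads apart, and had 0 to 275 counts. Slamf7 itself had 353 to 9272 counts, Fgl2 242 to 7678 and Itga1 119 to 6570.

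Promoter sequence was at hand for 7 of the 8 genes, in RefSeq's GRCm38.p6 windows of 250 bases before each start, and Cd93 had no entry. The AP-1 motif TGANTCA, which reads the same on both strands, was found in 3 of the 7, against 6.75% of all 32851 windows. Those 3 are printed here from 120 to 5 bases before the start, 5′ to 3′ on the gene's strand, because they are the members whose windows share these letters, shown in capitals. The Slamf7 stretch is chr1:171649004-171649119, the Fgl2 stretch chr5:21372553-21372668 (its last 27 bases lie in a GENCODE exon) and the Itgax stretch chr7:128129430-128129545.
Slamf7: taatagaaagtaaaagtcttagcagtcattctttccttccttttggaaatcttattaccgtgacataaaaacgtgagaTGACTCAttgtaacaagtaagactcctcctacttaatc
Fgl2: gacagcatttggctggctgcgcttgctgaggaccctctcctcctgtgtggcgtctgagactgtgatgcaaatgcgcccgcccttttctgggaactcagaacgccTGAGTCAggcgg
Itgax: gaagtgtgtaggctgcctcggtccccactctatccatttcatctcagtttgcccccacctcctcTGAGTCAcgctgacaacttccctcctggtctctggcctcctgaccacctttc
The match begins 42 bases before the RefSeq start in Slamf7, 16 in Fgl2 and 56 in Itgax. A match is a description of the letters, not a binding site. Of the other motifs searched on both strands, CCAAT was in Itgax and Chsy1 (33.8% of all windows) and GGGCGG, of the SP and KLF factors, in Fgl2, Chsy1 and Ssh2 (32.7%). The letters TATAAA (12.4% of all windows), TGTGGT for RUNX (14.0%), AGGTGT for T-box factors (11.8%) and GTAAACA for FOX factors (3.17%) were in none of the 7, nor was the motif of IRF factors (2.98%). Itga1 and Pik3ap1 held none of the 8 motifs.

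Library totals ran from 17035638 to 23203603 counts. The co-receptor gene Cd4 ran from 632 to 1448 CPM (counts-per-million, scaled by TMM) across the CD4+ libraries against 0.975 to 4.29 CPM across the γδ libraries. Trdc, of the δ chain, ran from 7552 to 14401 counts in γδ and from 5 to 165 in CD4+ libraries. Trdc was thus scarce in CD4+ T cells of both genotypes and does not check the knockout. Mitochondrial genes took 51.1% and 52.7% of all reads in knockout control, more than the 40.8% to 43.9% of the remaining 6 CD4+ libraries. The γδ MCD libraries had 8989 and 10125 genes with at least 10 counts, against 11903 to 13402 in the other 10. The γδ libraries also carried many reads of myeloid genes: 10 of 15 macrophage markers were called higher in them than in CD4+ T cells, with a summed level of 1073 to 2496 CPM against 18.3 to 78.2 CPM in CD4+ libraries.

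In CD4+ T cells of knockout mice on the control diet, 7 of the 8 genes were at their lowest or near it, and Ssh2 was at its highest. The same 7 were higher in knockout mice on the MCD diet and in wild-type mice on the control diet, without overlap between libraries, while Ssh2 was lower in both. Among all genes tested, 9.99% had the knockout control libraries below both of these groups and 9.65% above both. Since this contrast chose the genes, nothing is read from the count.

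**Figure D1:**
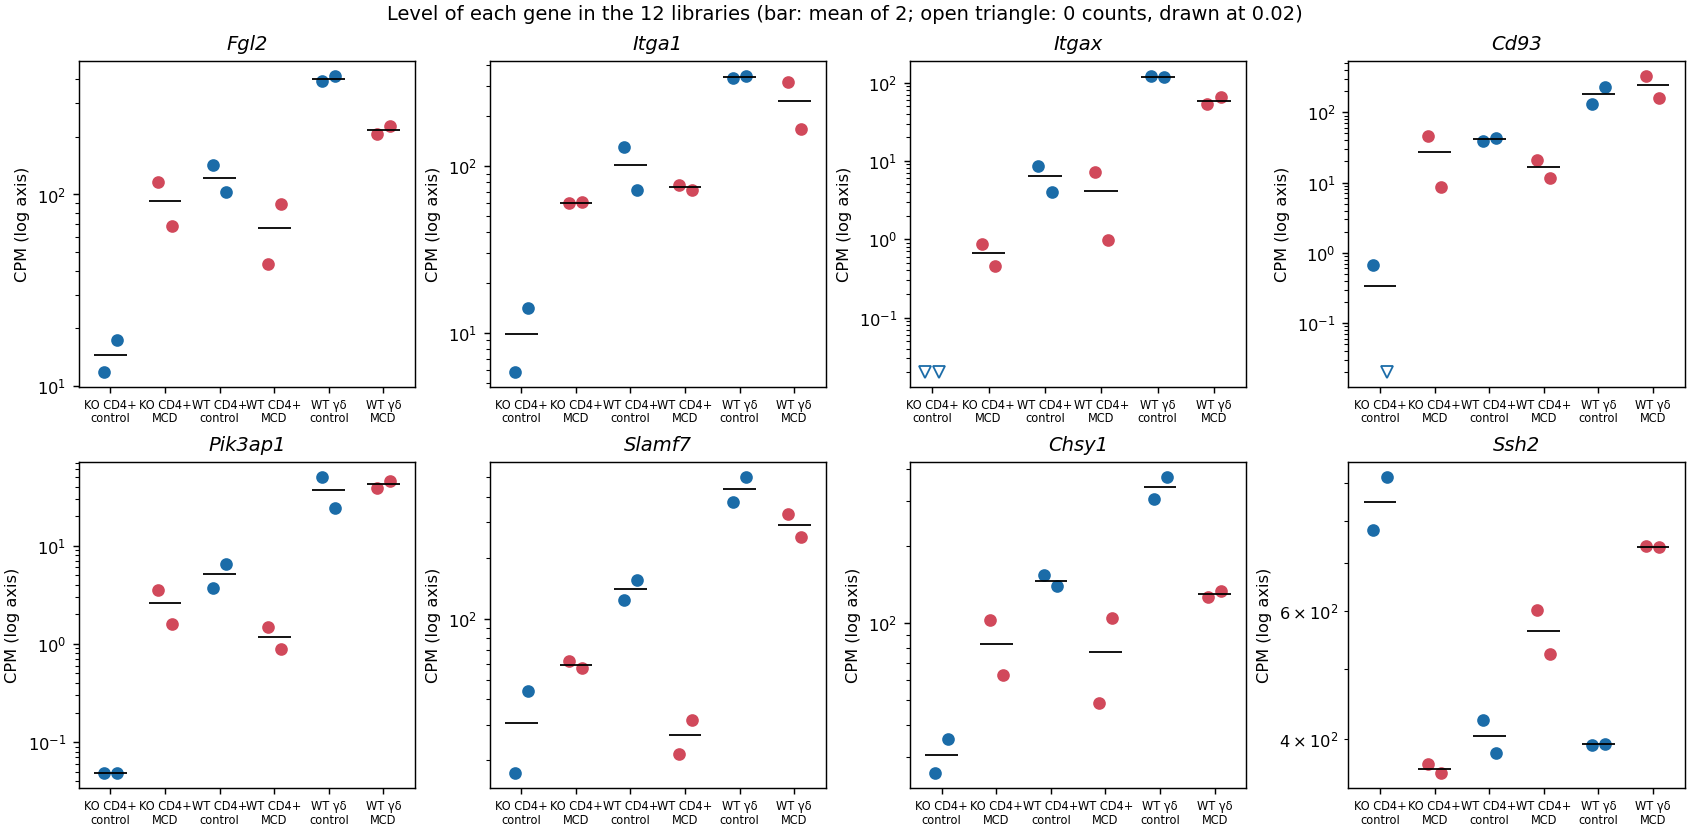
Level of each of the 8 genes in CPM (log axis) in the 12 libraries, with blue points for the control diet, red points for the MCD diet, bars for the mean of 2 and open triangles for libraries with 0 counts. Itgax was at 0 in both knockout control libraries, and Ssh2 was highest there at 776 and 918 CPM.

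Itga1, the α1 integrin chain, read 5.80 and 14.0 CPM in knockout against 130 and 71.9 CPM in wild-type cells, both CD4+ and control-fed. Itga1 in MCD-fed mice read 59.9 and 60.5 CPM (knockout) and 76.8 and 71.7 CPM (wild type). Itga1 levels in γδ T cells were 334 and 346 CPM (control) and 320 and 167 CPM (MCD). The knockout control libraries lay below all others, the wild-type diets overlapped, and all 4 γδ libraries lay above all CD4+ libraries. The mean of wild-type control was 10.2-fold that of knockout control (101 ± 40.7 against 9.90 ± 5.79 CPM, SD, n = 2 each), and knockout MCD (60.2 ± 0.419 CPM) was 6.09-fold above knockout control.

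Itgax, the αX integrin chain, had 0 counts in both knockout libraries against 188 and 93 counts in wild-type cells, both CD4+ and control-fed. Itgax in MCD-fed mice had 19 and 10 counts (knockout) and 146 and 21 counts (wild type). Itgax levels in γδ T cells were 2392 and 2147 counts (control) and 638 and 966 counts (MCD). It was thus a scarce transcript in all CD4+ groups, with the wild-type diets overlapping. Against a floor of 3 counts in each knockout control library, wild-type control was at least 43.7-fold higher and knockout MCD at least 4.6-fold higher. In CPM, wild-type control read 6.34 ± 3.27, wild-type MCD 4.07 ± 4.39 and knockout MCD 0.668 ± 0.294 (SD, n = 2 each). The floors and the counting intervals given here cover counting error only.

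Slamf7, the SLAM family receptor, read 17.2 and 43.7 CPM in knockout against 124 and 156 CPM in wild-type cells, both CD4+ and control-fed. Slamf7 in MCD-fed mice read 61.9 and 56.9 CPM (knockout) and 21.4 and 31.6 CPM (wild type). Slamf7 levels in γδ T cells were 378 and 502 CPM (control) and 330 and 253 CPM (MCD). Unlike the other 6 genes that were low in knockout control, Slamf7 had its lowest mean in wild-type MCD, whose libraries overlapped knockout control. Wild-type control (140 ± 22.7 CPM) was 4.59-fold above knockout control (30.5 ± 18.7 CPM) and 5.28-fold above wild-type MCD (26.5 ± 7.22 CPM, SD, n = 2 each). The diet effect in knockout cells was smaller, 1.95-fold.

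Cd93, the lectin-like receptor, had 14 and 0 counts in knockout against 860 and 1010 counts in wild-type cells, both CD4+ and control-fed. Cd93 in MCD-fed mice had 999 and 188 counts (knockout) and 432 and 254 counts (wild type). Cd93 levels in γδ T cells were 2610 and 4212 counts (control) and 3993 and 2351 counts (MCD). Knockout control was nearly without reads, and the replicates of knockout MCD were far apart, spanning both wild-type groups. Wild-type control (41.7 ± 2.98 CPM) stood 122-fold and knockout MCD (27.3 ± 26.4 CPM) 80.1-fold above knockout control (0.341 ± 0.483 CPM, SD, n = 2 each). These folds rest on 14 counts in 1 of the knockout control libraries.

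Fgl2, the fibrinogen-like effector, read 11.8 and 17.3 CPM in knockout against 142 and 103 CPM in wild-type cells, both CD4+ and control-fed. Fgl2 in MCD-fed mice read 116 and 68.0 CPM (knockout) and 43.6 and 89.5 CPM (wild type). Fgl2 levels in γδ T cells were 389 and 416 CPM (control) and 207 and 227 CPM (MCD). The knockout control libraries were the lowest of the 12, and the 4 γδ libraries the highest. Wild-type control (123 ± 27.7 CPM) was 8.42-fold and knockout MCD (92.2 ± 34.1 CPM) 6.33-fold above knockout control (14.6 ± 3.90 CPM, SD, n = 2 each). Knockout MCD overlapped both wild-type groups.

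Pik3ap1, the PI3K adaptor, had 1 and 1 counts in knockout against 80 and 150 counts in wild-type cells, both CD4+ and control-fed. Pik3ap1 in MCD-fed mice had 77 and 35 counts (knockout) and 30 and 19 counts (wild type). Pik3ap1 levels in γδ T cells were 985 and 444 counts (control) and 470 and 683 counts (MCD). No neighbouring CD4+ groups overlapped in CPM, in the order wild-type control, knockout MCD, wild-type MCD and knockout control. From pooled counts, wild-type control was 106-fold above knockout control (exact 95% interval 29.0 to 881) and knockout MCD 53.3-fold above it (14.4 to 445).

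Chsy1, the chondroitin sulphate synthase, read 26.0 and 35.3 CPM in knockout against 154 and 140 CPM in wild-type cells, both CD4+ and control-fed. Chsy1 in MCD-fed mice read 103 and 62.6 CPM (knockout) and 49.0 and 105 CPM (wild type). Chsy1 levels in γδ T cells were 306 and 371 CPM (control) and 126 and 133 CPM (MCD). It was the gene among the 7 for which wild-type control CD4+ T cells (147 ± 9.79 CPM, SD, n = 2) lay above γδ T cells of the MCD diet (130 ± 4.98 CPM, SD, n = 2). Wild-type control was 4.78-fold and knockout MCD 2.70-fold above knockout control (30.6 ± 6.58 CPM, SD, n = 2).

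Ssh2, the cofilin phosphatase, read 776 and 918 CPM in knockout against 425 and 383 CPM in wild-type cells, both CD4+ and control-fed. Ssh2 in MCD-fed mice read 370 and 359 CPM (knockout) and 602 and 525 CPM (wild type). Ssh2 levels in γδ T cells were 393 and 395 CPM (control) and 738 and 736 CPM (MCD). Knockout control was highest of the 6 groups and knockout MCD lowest, and in wild-type mice both CD4+ and γδ T cells were higher on the MCD diet. Knockout control (847 ± 100 CPM) was 2.10-fold above wild-type control (404 ± 29.4 CPM) and 2.32-fold above knockout MCD (365 ± 7.42 CPM, SD, n = 2 each).

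Levels of different genes can be set side by side only per length. In the deposited FPKM of wild-type control CD4+ T cells, Chsy1 (33.2), Fgl2 (30.6), Slamf7 (28.9) and Ssh2 (20.6) were the abundant members, Cd93 (5.91) and Itga1 (5.12) were lower, and Pik3ap1 (1.85) and Itgax (1.25) were scarce (each a mean of n = 2).

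As differences on the log2 scale from the fit over all genes, knockout minus wild type on the control diet ran from -2.19 ± 0.43 (SE) for Slamf7 to -6.56 ± 1.10 for Cd93 among the 7, and was 1.07 ± 0.21 for Ssh2. The fitted values of Itgax (-5.99 ± 0.93) and Pik3ap1 (-5.12 ± 0.95) depend on the prior count and are no bound. Without overlap, 7 genes were lower and 1 higher in knockout, against 20.6% lower and 16.7% higher of all genes tested. In the order of p-values of this contrast the genes took places 3, 4, 5, 7, 9, 10, 12 and 13. Ahead of them stood the ribosomal RNA mt-Rnr2 and the γ-chain constant gene Tcrg-C4, and between them mt-Rnr1, Tcrg-C2 and the receptor gene Klri2. Slamf7 and Ssh2 were the members nearest the edge, and Add3 (1.32), mt-Co1 (0.59) and Lyst (-1.28) came next outside it.

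The diet effect had opposite signs in the CD4+ T cells of the 2 genotypes for all 8 genes, where 48.7% of all genes tested did so. This comparison also chose the genes. In knockout cells the log2 difference of MCD minus control was 5.96 ± 1.07 (SE) for Cd93, 4.16 ± 0.88 for Pik3ap1, 2.92 ± 0.69 for Itgax, 2.65 ± 0.43 for Fgl2 and 2.59 ± 0.48 for Itga1. It was 1.43 ± 0.41 for Chsy1, 0.96 ± 0.42 for Slamf7 and -1.22 ± 0.21 for Ssh2. Thus 7 genes were higher and 1 lower without overlap, against 20.8% and 18.1% of all genes tested.

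In wild-type CD4+ T cells the log2 difference of MCD minus control was -2.39 ± 0.43 (SE) for Slamf7, -2.02 ± 0.91 for Pik3ap1, -1.33 ± 0.87 for Cd93, -0.93 ± 0.41 for Chsy1 and -0.88 ± 0.41 for Fgl2. Those 5 were lower without overlap, against 17.2% of all genes tested, and Ssh2 was higher (0.48 ± 0.21), against 16.7%. Itgax (-0.63 ± 0.84) and Itga1 (-0.44 ± 0.45) overlapped between the diets. Thus 6 of the 8 separated the diets in both genotypes in opposite directions, as did 5.88% of all genes tested, and since the genes were chosen for this nothing is read from it. Without wild-type control replicate 2, Itgax stood at 0.016 and Itga1 at 0.048, and without wild-type MCD replicate 3 Itgax stood at 0.18.

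On the MCD diet the genotypes lay closer together. The genes were chosen for a genotype gap on the control diet or a diet effect that differed by genotype. Nothing is therefore read from the smaller gap. Knockout minus wild type was 1.16 ± 0.42 (SE) for Slamf7 and 1.07 ± 0.87 for Pik3ap1 on the log2 scale, both higher without overlap (15.9% of all genes tested). Itgax (-2.44 ± 0.87), Ssh2 (-0.63 ± 0.21) and Itga1 (-0.30 ± 0.45) were lower without overlap (17.0%). Cd93 (0.73 ± 0.86), Fgl2 (0.47 ± 0.41) and Chsy1 (0.10 ± 0.40) overlapped. Cd93 stood at -0.92 without knockout MCD replicate 1, and Chsy1 at -0.30 without that library and at -0.34 without wild-type MCD replicate 1.

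**Figure D2:**
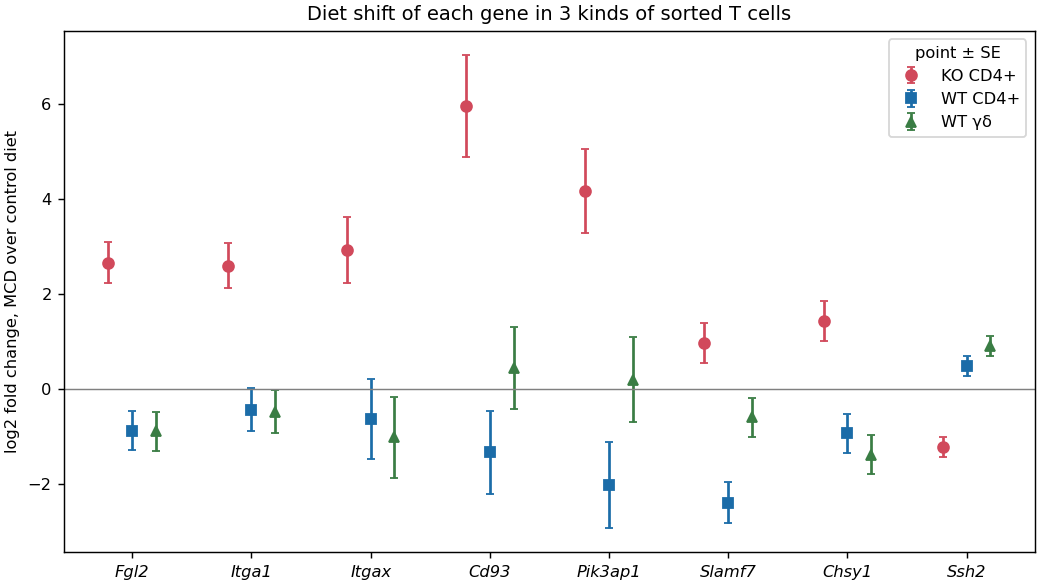
Log2 fold change of MCD over control diet for each gene (point ± SE, from 2 libraries a group) in knockout CD4+, wild-type CD4+ and wild-type γδ T cells. Knockout values lie above 0 for 7 genes and at -1.22 for Ssh2, wild-type CD4+ values have the opposite sign for all 8, and γδ values lie on the wild-type CD4+ side for 6, the exceptions being Cd93 and Pik3ap1.

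The diets in γδ T cells were compared in libraries that had no part in choosing the genes. Fgl2, Itga1, Itgax, Slamf7 and Chsy1 were lower on the MCD diet without overlap between libraries (22.1% of all genes tested were), and Ssh2 was higher (11.1% were). None of the 8 passed edgeR's quasi-likelihood test after Benjamini-Hochberg adjustment over all genes, by which 0 of 16218 genes (0.0%) were called in either direction. Ssh2 was nearest, at 737 ± 1.48 against 394 ± 1.38 CPM (SD, n = 2 each), a log2 fold change of 0.90 ± 0.21 (SE; edgeR adjusted p = 0.0936). Chsy1 was at -1.38 ± 0.41 (130 ± 4.98 against 338 ± 46.3 CPM; edgeR adjusted p = 0.145) and Fgl2 at -0.89 ± 0.41 (217 ± 14.8 against 402 ± 19.0 CPM; edgeR adjusted p = 0.279).

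These 3 genes had an unadjusted p under 0.05, as did 2839 of all genes tested. DESeq2 called Ssh2 (adjusted p = 0.00265) and Chsy1 (adjusted p = 0.0377) among 2105 genes, and limma-voom called Ssh2 (adjusted p = 0.0497) among 63. Limma on log2 FPKM called none of the 8 at either pseudocount, among 169 and 282 genes. In edgeR's quasi-likelihood test Ssh2 was called without γδ MCD replicate 2 (adjusted p = 0.0296) or without replicate 4 (adjusted p = 0.0194). Each of these fits leaves 1 library in that group, which is assumed to vary like the other groups.

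For the other 5 genes the log2 fold change in γδ T cells was -1.02 ± 0.85 (SE) for Itgax, -0.60 ± 0.41 for Slamf7, -0.48 ± 0.45 for Itga1, 0.43 ± 0.86 for Cd93 and 0.19 ± 0.89 for Pik3ap1 (edgeR adjusted p = 0.449 to 0.982). Cd93 stood at -0.19 without γδ MCD replicate 2, and Pik3ap1 at -0.24 without γδ control replicate 7. Set beside wild-type CD4+ T cells, which share no library with γδ T cells, the diet effect had the same sign for 6 genes, as it did for 48.2% of all genes tested. The wild-type control CD4+ libraries had a part in choosing the genes. The log2 difference between the diet effects, γδ minus wild-type CD4+, was -0.01 for Fgl2, -0.04 for Itga1, -0.39 for Itgax, -0.45 for Chsy1 and 0.42 for Ssh2, and 1.77 to 2.22 for Slamf7, Cd93 and Pik3ap1. These differences were not tested. Set beside knockout CD4+ T cells, whose libraries chose the genes, 6 of the 8 separated the diets in both in opposite directions, as did 6.76% of all genes tested. Sinusoidal endothelium markers in the same γδ libraries summed to 816 and 1627 CPM on the control diet and 147 and 153 CPM on the MCD diet, with all 15 lower on the MCD diet and none called. Neutrophil and monocyte markers read 310 and 494 CPM on the control diet against 841 and 644 CPM on the MCD diet (7 of 8 higher, none called), and B and plasma cell markers 694 and 689 CPM against 325 and 521 CPM (9 of 11 lower, none called). The first and the last of these lists thus moved with the genes that were lower on the MCD diet. The second moved with Ssh2 and, in sign, with Cd93 and Pik3ap1, whose libraries overlapped between the diets. NK cell markers summed to 901 and 871 CPM on the control diet and 744 and 481 CPM on the MCD diet, with 4 of 10 higher and 5 lower. Macrophage markers were mixed (6 of 15 higher, 9 lower), as were dendritic cell markers (8 of 12 higher, 4 lower). The part of all these lists in the diet effects of the 8 genes was not tested. In bulk samples, fewer cells of a type and less RNA per cell cannot be told apart.

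Averaged over both genotypes, the diet effect in CD4+ T cells was positive for 6 genes and negative for Slamf7 and Ssh2. It uses the libraries that chose the genes, among them knockout control with its extreme levels, so its values are not independent of the choice. Cd93 was farthest from 0, at a log2 fold change of 2.31 ± 0.63 (SE; edgeR adjusted p = 0.451), followed by Itgax (1.15 ± 0.35), Itga1 (1.08 ± 0.32), Pik3ap1 (1.07 ± 0.44), Fgl2 (0.89 ± 0.29) and Chsy1 (0.25 ± 0.29). Slamf7 was at -0.72 ± 0.29 and Ssh2 at -0.37 ± 0.15. None of the 8 passed edgeR's quasi-likelihood test after Benjamini-Hochberg adjustment, where 0.037% of all genes were called higher and 0.0% lower.

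Without the adjustment, 7 of the 8, all but Chsy1, had p under 0.05, as did 986 of all genes tested, and for the same reason nothing is read from that count. No gene of the 8 had both genotypes' MCD libraries on one side of all control libraries (2.54% of all genes were higher and 2.24% lower in this way). DESeq2 called Cd93 (adjusted p = 0.0122) among 196 genes, and limma-voom and limma on log2 FPKM called none of the 8. In edgeR's quasi-likelihood test Cd93 was also called without the filter on low counts (adjusted p = 1.68e-06). Its log2 fold change was 3.38 without knockout control replicate 1 and 2.32 without γδ MCD replicate 2 or replicate 4. Leaving out a library left 1 in its group, with the spread taken from the other groups. The knockout control library that remained had 0 Cd93 counts. The average joins a Cd93 diet effect of 5.96 in knockout and -1.33 in wild-type cells, and so describes neither genotype. Since these libraries chose Cd93, nothing is read from its calls. On log2 FPKM with a pseudocount of 1, Itgax stood at -0.098 and Pik3ap1 at -0.038, and Chsy1 stood at -0.074 without wild-type MCD replicate 3.

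γδ T cells carried more of 7 of the 8 transcripts than the mean of the 4 CD4+ groups. Itgax was 32.1-fold higher in mean CPM, Pik3ap1 17.9-fold, Cd93 9.88-fold, Slamf7 5.71-fold, Itga1 4.76-fold, Fgl2 4.19-fold and Chsy1 2.78-fold. Ssh2 was alike in size, at 565 against 545 CPM. For 6 of the 7, every γδ library lay above every CD4+ library (3.68% of all genes tested did so, and 3.83% lay wholly below), and Chsy1 overlapped.

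On the log2 scale of the fit, γδ minus CD4+ was 6.12 ± 0.53 (SE) for Itgax (edgeR adjusted p = 2.12e-05), 4.96 ± 0.54 for Pik3ap1 (7.39e-05) and 4.45 ± 0.53 for Cd93 (0.000151). It was 2.81 ± 0.24 for Slamf7 (edgeR adjusted p = 1.25e-05), 2.64 ± 0.27 for Itga1 (4.27e-05), 2.36 ± 0.24 for Fgl2 (4.27e-05) and 1.52 ± 0.24 for Chsy1 (0.00124). The test called 6.83% of all genes higher and 4.53% lower in γδ T cells. Ssh2 was at 0.07 ± 0.13 (edgeR adjusted p = 0.841), at -0.51 with library-size scaling (adjusted p = 0.0207), under which the median of all genes moved from -0.22 to -0.74, and at -0.41 without the γδ MCD libraries (adjusted p = 0.105).

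Because the CD4+ mean holds the knockout control libraries, which are low for these genes by choice, the comparison was repeated without them. The CD4+ libraries that remained also had a part in choosing the genes, so this fit is not independent of the choice either. All 7 remained called, at log2 differences of 4.92 for Itgax, 3.91 for Pik3ap1, 2.96 for Cd93, 2.55 for Slamf7, 1.89 for Itga1, 1.68 for Fgl2 and 1.08 for Chsy1 (edgeR adjusted p = 4.1e-05 to 0.0268).

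**Figure D3:**
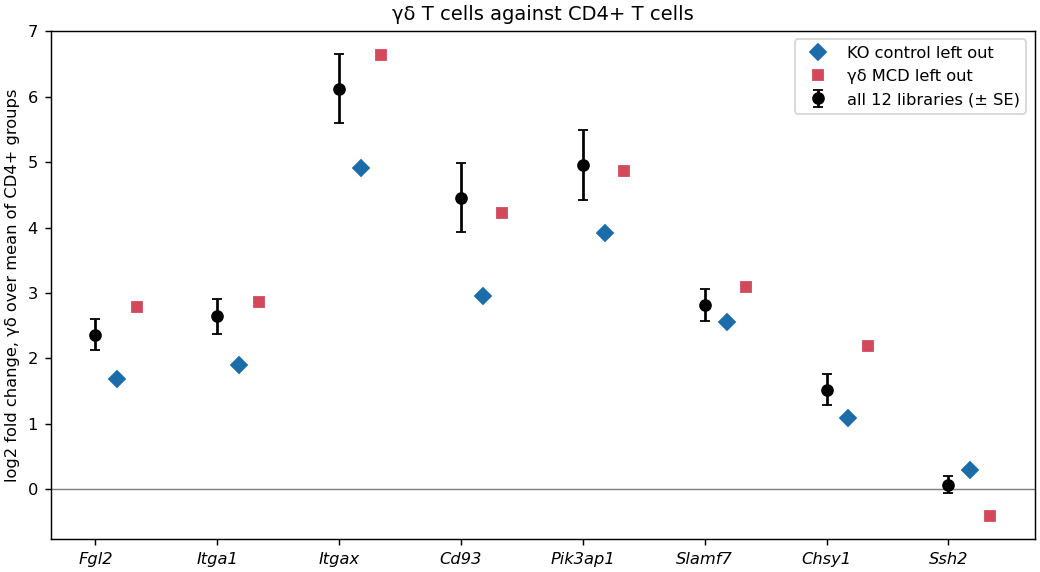
Log2 fold change of γδ T cells over the mean of the CD4+ groups for each gene, in all 12 libraries (black, ± SE) and with the knockout control libraries (blue) or the γδ MCD libraries (red) left out. The first 7 genes lie above 0 in each fit, from 1.08 to 6.63, and Ssh2 lies between -0.41 and 0.29.

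Markers of other cells moved with this comparison. Dendritic cell markers, of which CD11c itself was left out, summed to 2055 to 4127 CPM in γδ and 84.8 to 209 CPM in CD4+ libraries, and 6 of 12 were called higher in γδ. Neutrophil and monocyte markers summed to 310 to 841 CPM against 36.2 to 144 CPM (7 of 8 called), and NK cell markers to 481 to 901 CPM against 15.7 to 144 CPM (6 of 10 called higher and Khdc1a lower). Sinusoidal endothelium markers summed to 147 to 1627 CPM in γδ and 79.4 to 176 CPM in CD4+ libraries, overlapping, and 7 of 15 were called higher in γδ. The macrophage genes Lyz2 (616 to 1616 CPM in γδ, 2.59 to 29.7 CPM in CD4+) and Csf1r (138 to 273 CPM in γδ, 2.75 to 11.3 CPM in CD4+) were among those called. Cd93 had its lowest and its highest γδ level (133 and 330 CPM) in the same libraries as the summed macrophage markers (1073 and 2496 CPM). Itgax ran the other way, with its highest γδ level (122 CPM) and its lowest (52.7 CPM) in those libraries. The part of these cells in the γδ levels of Itgax, Cd93, Fgl2 and the other genes was not tested.

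Among CD4+ libraries, the summed NK cell markers and the γ-chain gene Tcrg-C4 were also lowest in knockout control. The summed NK markers read 21.6 and 15.7 CPM in knockout against 110 and 144 CPM in wild-type cells, both CD4+ and control-fed, and 123 and 55.7 CPM (knockout) and 134 and 70.4 CPM (wild type) with the MCD diet. Knockout control was thus lowest in the sum, below all other CD4+ libraries. Of the 10 NK markers, 7 were lower and 3 higher in knockout than in wild-type cells on the control diet. Klrb1c read 5.75 and 6.20 CPM in knockout control and 55.1 and 0.828 CPM in knockout MCD. Ncr1, a defining NK receptor gene, was at 0 in all 4 wild-type CD4+ libraries, with 1 and 0 counts in control-fed and 55 and 8 in MCD-fed knockout mice. Tcrg-C4 had 120 and 63 counts in knockout against 1730 and 2379 in wild-type cells of control-fed mice. With the MCD diet it had 462 and 201 (knockout) and 849 and 533 (wild type). Tcrg-C1 was less even, with 120 and 106 counts in knockout control and 860 and 26 in knockout MCD. Macrophage markers summed to 60.2 and 31.7 CPM in knockout control, 69.2 and 38.6 CPM in knockout MCD, 78.2 and 71.2 CPM in wild-type control and 18.3 and 26.3 CPM in wild-type MCD. They thus overlapped between the diets in the knockout, while wild-type control lay above knockout control and above wild-type MCD, as it did for Slamf7, Cd93, Fgl2, Pik3ap1 and Chsy1. The regulatory T cell list also summed lowest in knockout control, at 315 and 314 CPM, below all other CD4+ libraries (407 to 726 CPM). Of its 12 genes, 5 were higher and 7 lower there than in wild-type control (median log2 difference -0.19). On the MCD diet 9 of the 12 were higher in knockout cells. In wild-type cells 9 were also higher, where the diet effect was negative for the 7 genes. B and plasma cell markers summed highest in knockout control, as Ssh2 was, at 548 and 674 CPM against 252 to 375 CPM in the other CD4+ libraries. Of the 11 markers, 7 were higher and 4 lower there than in wild-type control. In wild-type CD4+ T cells 8 of the 11 were lower on the MCD diet, while Ssh2 was higher. Sinusoidal endothelium markers summed to 163 and 160 CPM in knockout control, overlapping wild-type control (176 and 130 CPM). By gene, 13 of the 15 were lower and 2 higher in knockout control than in wild-type control. With the MCD diet 11 were lower and 4 higher in wild-type cells, and 6 were lower and 8 higher in knockout cells. The part of other cells in the CD4+ levels was not tested.

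**Figure D4:**
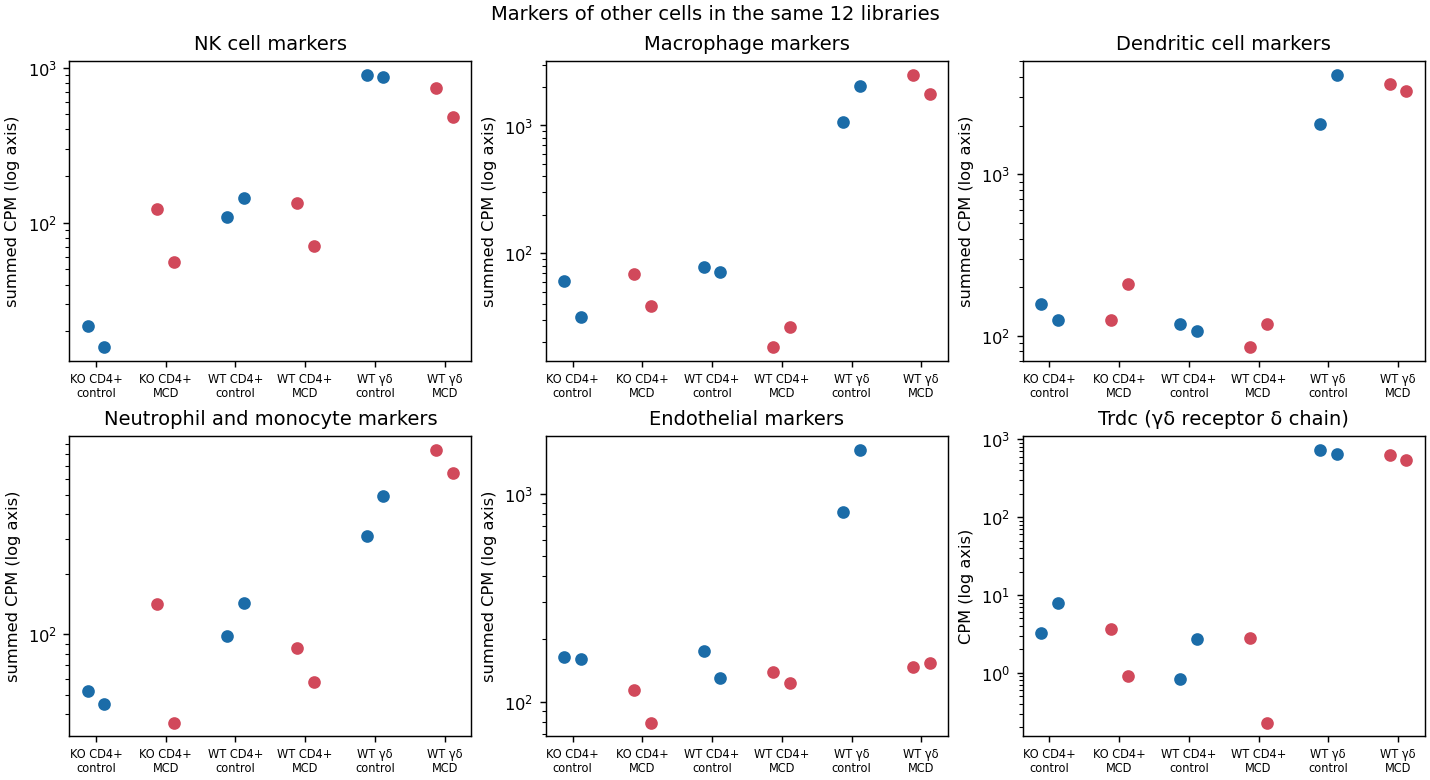
Summed CPM (log axis) of marker lists of other cells, and CPM of Trdc, in the 12 libraries, with blue points for the control diet and red points for the MCD diet. NK markers are lowest in knockout control CD4+ T cells at 21.6 and 15.7 CPM, and macrophage, dendritic and neutrophil markers are highest in γδ T cells.

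Over the 8 CD4+ libraries the members ran together. Pearson's r of log2 CPM was 0.96 between Fgl2 and Chsy1, 0.94 between Cd93 and Pik3ap1 and 0.93 between Fgl2 and Itga1, and -0.91 between Pik3ap1 and Ssh2. The weakest was 0.48, between Itgax and Slamf7 and between Cd93 and Slamf7. These values describe libraries in which the genes were chosen for 1 pattern.

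The genes most like each member over all 12 libraries, among 9560 candidates, were often other members. For Fgl2 they were Chsy1 (r = 0.96), Peak1 (0.96) and Itga1 (0.96), and for Chsy1 they included Fgl2 and Peak1 (0.91). Itga1 was most like Fgl2, Itgax (0.94) and the deiminase gene Padi2 (0.93). The activating receptor gene Klrk1 (NKG2D) was near both Itgax (0.97) and Pik3ap1 (0.95), as was Dennd4a (0.96 and 0.95), and Rcn2 (0.94) was the third for Itgax. Pik3ap1 was nearest to Il2rb (0.96), the interleukin-2 receptor β chain, and Cd93 to Rora (0.96), Ccrl2 (0.94) and Pik3ap1 (0.94). Slamf7 was nearest to F2r (0.93), Itgal (0.92) and Adap2 (0.92), and Ssh2 to Treml2 (0.85), Rplp0 (0.83) and Rptor (0.83). The libraries share the contrast between γδ and CD4+ T cells, which enters every r.

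The relatives of each member were examined as lists. No listed gene was called by edgeR's quasi-likelihood test for the diets in γδ T cells, and in the average diet effect of CD4+ T cells Rgs1 of the residency list alone was called, higher on the MCD diet. In γδ against CD4+ T cells, 7 of 21 tested integrin chains other than the members were called higher (Itga5, Itgad, Itgae, Itgal, Itgam, Itgb2 and Itgb5) and 2 lower (Itga6 and Itga7), with a median log2 difference of 0.62 against -0.22 over all genes. Itgal, the αL chain of LFA-1, was higher by 0.88 ± 0.13 (SE; edgeR adjusted p = 0.000773), and Itgb2, the β2 chain that pairs with αL and αX, by 0.62 ± 0.17 (edgeR adjusted p = 0.029). Itga4 was at 0.33 ± 0.12 (edgeR adjusted p = 0.101). Of the residency list 6 of 16 genes were called higher (among them Cxcr6, Rgs1 and Runx3) and 4 lower (among them Klf2, S1pr1 and Ccr7, genes of circulating T cells), with a median of 0.54.

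Of 13 SLAM family genes and adaptors, 4 were called higher in γδ T cells (Cd48, Cd244, Slamf8 and Sh2d1b1) and 2 lower (Slamf1 and Slamf6), with a median of -0.08. Slamf6 read 22.1 ± 13.4 and 30.2 ± 15.4 CPM in γδ T cells on the control and MCD diets and 150.0 ± 5.81 to 228 ± 46.5 CPM in the CD4+ groups (SD, n = 2 each). Slamf7 and Slamf6 thus lay on opposite sides. Around Fgl2, 4 of 7 relatives and receptors were called higher, all Fcγ receptors (Fcgr1, Fcgr2b, Fcgr3 and Fcgr4), with a median of 3.88. Fcgr2b, the inhibitory receptor that FGL2 binds, read 121 ± 79.3 and 31.2 ± 17.8 CPM in γδ T cells on the control and MCD diets and 1.17 ± 0.902 to 7.72 ± 9.80 CPM in the CD4+ groups (SD, n = 2 each). Myeloid cells express these receptors, and Fcgr2b is also 1 of the 7 sinusoidal endothelium markers called higher in γδ. The part of either cell type in these levels was not tested. Around Cd93, 2 of 4 were called higher (Thbd and Msn, median 1.52), and Msn, which encodes moesin, was higher by 0.51 ± 0.11 (SE; edgeR adjusted p = 0.0101).

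In the PI3K list 3 of 24 genes were called higher in γδ T cells, among them Pik3cg and Pik3r6, and 5 lower (Pik3r2, Lat, Trat1, Cd28 and Inpp4b), with a median of -0.75. Cd28, the co-stimulatory receptor, was lower by 1.95 on the log2 scale (-1.95 ± 0.33, SE; edgeR adjusted p = 0.00226), and Inpp4b was at -1.22 ± 0.21 (edgeR adjusted p = 0.00275). Pik3ap1 was thus on the other side from the 5 genes called lower and on the same side as the 3 called higher. Around Ssh2, 2 of 13 genes of the cofilin pathway were called higher (Cfl1 and Dstn) and Ssh3 lower, with a median of -0.80. Cfl1, cofilin itself, was at 1.22 ± 0.21 (SE; edgeR adjusted p = 0.00223) and the close relative Ssh1 at -1.01 ± 0.35 (edgeR adjusted p = 0.0818). Among 18 genes of chondroitin sulphate synthesis only the sulphotransferase Chst11 was called, higher, with a median of 0.00113. Of the regulatory T cell list 2 of 12 genes were called higher (Il2ra and Nrp1) and 6 lower, among them Foxp3 and Ctla4, with a median of -1.97.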

How the data were processed

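RNA of T cells sorted by flow cytometry was sequenced by Illumina protocols, per the labels' protocols. Per the submitters' processing notes, bcl2fastq, STAR, featureCounts and DESeq2 were used with the build mm10, or GRCm38, and neither versions nor roles were given. The authors deposited raw read counts per gene, which were tested as deposited, and FPKM, whose library factor is not given in the sources used here and which served for levels per length and as an alternative. Groups came from the labels. The 8 genes, the gene lists and the comparisons were chosen with earlier results of these data known.

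Genes were kept by filterByExpr (minimum count 10, minimum total 15). All 12 libraries were fitted together with 1 coefficient a group in edgeR 4.0.16 under R 4.3.3 (TMM scaling, quasi-likelihood test, 2-sided, prior count 2). P-values were adjusted by the Benjamini-Hochberg method over the 16218 genes, with a threshold of 0.05. The SE of a log2 fold change was its size divided by the square root of F. CPM were scaled by TMM, and folds are ratios of mean CPM. A floor of 3 counts was 0.13 to 0.248 CPM. Besides the 8 genes, the rule named up to 3 genes of each list with the highest mean in CD4+ libraries and the 3 genes most like each member by Pearson's r, among genes with at least 5 CPM in their highest group. Other listed genes were named after their calls were seen.

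Alternatives were RLE and library-size scaling, no mitochondrial genes, DESeq2 1.42.0, limma-voom (limma 3.58.1), no filter, a mean of at least 50 counts, only CD4+ libraries, a replicate block, log2 FPKM with pseudocounts of 1 and 0.1, and each library left out. Leaving out the γδ MCD or the knockout control libraries was chosen after seeing the data. The fit was first tested on simulated data with known changes. Replicates of a group were not identical (Pearson's r of log2 CPM across genes 0.732 to 0.863). Symbols matched GENCODE vM21 for 91.7% of the genes. A protein table was not used here. Some genes that the naming rule or the lists pick are not reported here by name.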

Additional observations from a re-analysis of the deposited data

Results flagged for a closer look

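In CD4+ T cells every MCD library lay on one side of every control library in the knockout and on the opposite side in the wild type for 6 genes, as for 5.88% of all genes tested. The log2 difference between the diet effects, knockout minus wild type, was 7.29 for Cd93, 6.19 for Pik3ap1, 3.54 for Fgl2, 3.36 for Slamf7, 2.36 for Chsy1 and -1.7 for Ssh2. The genes were chosen for this difference, so it was not tested.

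The diet effect in γδ T cells likewise ran opposite to that in knockout CD4+ T cells, without overlap between the diets in either, for 6 genes, as for 6.76% of all genes tested. Here γδ minus knockout CD4+ was -3.94 for Itgax, -3.55 for Fgl2, -3.08 for Itga1, -2.81 for Chsy1, -1.56 for Slamf7 and 2.12 for Ssh2 on the log2 scale. This difference was not tested either, since its knockout part chose the genes.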

How the results depend on the processing

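The count of called genes among the 8 in γδ against CD4+ T cells was 7 in all alternatives except library-size scaling, which gave 8 by calling Ssh2 lower (-0.51). For the diets in γδ T cells it was 0, with 2 by DESeq2, 1 by limma-voom and 0 to 1 when a library was left out. For the average diet effect in CD4+ T cells it was 0, with 1 by DESeq2, 1 without the filter and 0 to 1 when a library was left out. Over all genes, the diets in γδ T cells gave 0 calls, against 2105 by DESeq2, 555 without the filter, 282 and 169 on log2 FPKM (pseudocounts of 0.1 and 1), 63 by limma-voom, 3 by library-size scaling and 21 to 1683 with a library left out. The average diet effect gave 6, against 196 by DESeq2, 106 without the filter, 54 in CD4+ libraries alone, 13 and 10 on log2 FPKM and 4 to 96 with a library left out. γδ against CD4+ gave 1842, against 3856 by DESeq2 and 1136 (without γδ control replicate 7) to 3423 (without γδ MCD replicate 4). Library-size scaling turned the split of higher and lower calls from 1107 and 735 to 682 and 1844. The causes of these changes were not tested. Leaving out a library also let more genes pass the filter, which uses the smallest group, and the part of this in the counts was not tested.

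Signs turned in a few values. Pik3ap1 between diets in γδ T cells stood at -0.038 with library-size scaling and between -0.24 (without γδ control replicate 7) and 0.81 when a library was left out, and Cd93 between -0.19 (without γδ MCD replicate 2) and 0.87. In the average diet effect, log2 FPKM with a pseudocount of 1 gave -0.098 for Itgax and -0.038 for Pik3ap1, and Chsy1 ranged from -0.074 (without wild-type MCD replicate 3) to 0.47. Ssh2 in γδ against CD4+ was -0.41 without the γδ MCD libraries. Between diets in wild-type CD4+ T cells, leaving out 1 library gave -0.80 to 0.048 for Itga1 (highest without wild-type control replicate 2) and -2.59 to 0.18 for Itgax (above 0 without that library or wild-type MCD replicate 3). Between genotypes on the MCD diet it gave -0.92 (without knockout MCD replicate 1) to 1.47 for Cd93 and -0.34 (without wild-type MCD replicate 1) to 0.75 for Chsy1, which was also below 0 without knockout MCD replicate 1.

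The knockout groups share replicate numbers, but the labels do not say that a number marks shared mice or days, and the correlation of the deviations was -0.00589. With the replicate block in the knockout libraries the called genes among the 8 numbered 0, 0 and 7 in the 3 tests, and the calls over all genes in γδ against CD4+ fell to 937. With 2 libraries a group, depth did not limit the abundant members, while Itgax, Cd93 and Pik3ap1 rest on few counts in knockout control.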
